A study of Canis lupus familiaris with 20 samples.

Results

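The Notch ligands, receptors and target genes and the Notch-cutting protease ADAM10 were followed in dog muscle through all array probes whose deposited gene name is JAG1, JAG2, NOTCH1, NOTCH2, NOTCH3, NOTCH4, HES1, HEY1 or ADAM10. Of these 9 symbols, 4 have a probe, and they account for 5 of the 42034 probes on the array. JAG1, NOTCH2 and HEY1 have 1 probe each and ADAM10 has 2, while JAG2, NOTCH1, NOTCH3, NOTCH4 and HES1 have no probe under that name and were not analysed here. Measurements came from muscle RNA of 2 DMD escaper dogs, 4 DMD affected dogs and 4 normal dogs, all labelled as 2 years old. DMD is Duchenne muscular dystrophy, the loss of the muscle protein dystrophin, and an escaper is a dog that lacks dystrophin but stays mildly ill. Every dog's RNA went onto 2 arrays with opposite dyes beside a common reference, which was RNA of 1 normal individual. The labels name neither the muscle sampled, nor a breed, nor the mutation. The dogs are numbered within each group, and the numbers carry no order.

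Notch signalling passes between touching cells. A ligand of the Jagged or Delta type on one cell binds a Notch receptor on its neighbour, ADAM10 removes the outer part of the receptor, gamma-secretase cuts the remainder inside the membrane, and the freed intracellular part joins RBPJ in the nucleus and turns on repressor genes such as HES1 and HEY1. In skeletal muscle the pathway is known for keeping satellite cells, the stem cells of muscle, quiescent and for holding back differentiation of myoblasts, and JAG1 has been described as a modifier of muscular dystrophy in escaper dogs.

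The probes decide what the array can show, so their positions come first, as the array files give them; the genome build is not given in the sources used here. The JAG1 probe lies at chr24:14688919-14688978 on the plus strand, and the NOTCH2 probe at chr17:59938608-59938667 on the minus strand. The HEY1 probe lies at chr29:30184056-30184115 on the minus strand. The first ADAM10 probe covers 60 adjoining bases at chr30:26596437-26596496 on the minus strand and is called the contiguous probe here. The second ADAM10 probe has its 60 bases spread over 5931 genomic bases at chr30:26620016-26625946, also on the minus strand, so it crosses at least 1 splice junction and is called the spliced probe. No genome or annotation of that build was used, so whether a probe lies in coding sequence or in a UTR is not stated. Below are the probes of the ligand and the receptor, each of which has at least 1 reading frame without a stop codon, and the spliced ADAM10 probe, in which capitals mark 7 codons that read histidine, 2 other residues, glycine, 2 other residues and histidine in a frame without a stop, which is the second part of the zinc-binding motif of such proteases; the part with its first histidine and the glutamate lies outside the probe.
JAG1 probe: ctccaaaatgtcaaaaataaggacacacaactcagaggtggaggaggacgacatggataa
NOTCH2 probe: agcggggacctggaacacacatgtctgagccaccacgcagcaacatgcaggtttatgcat
ADAM10 spliced probe: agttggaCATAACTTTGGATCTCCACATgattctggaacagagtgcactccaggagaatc

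Another 2 probes carry other names but are described in the files as jagged-like, and they were added by that description, outside the list of names. One is likened to part of mouse jagged-1 and lies at chr24:14689677-14689736 on the plus strand, 698 bases after the end of the JAG1 probe; it is called the jagged-1 probe by description. The other, the jagged-2 probe by description, lies at chr8:75583648-75583707 on the minus strand. Whether either measures the transcript its description names was not tested.

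Values are log2 ratios of dog over reference, averaged over the 2 arrays of a dog, unless a signal is named. A probe was tested when the scanner's flag put the signal of the dog's dye well above local background on both arrays in 2 or more dogs, and a difference was called when limma's adjusted p over all 16008 tested probes was under 0.05. Between 30.5% and 60.2% of probes were well above background on an array, and the 2 arrays of a dog correlated across tested probes with r lowest in affected 4, at 0.627, and highest in escaper 2, at 0.939. The 60.2% came from affected 4 in Cy5, and the other arrays reached at most 43.6%. Affected 1 stood apart from all other dogs, with −0.01 as its highest correlation with any of them, and escaper 2 reached at most 0.42. The 2 escapers shared 1 slide, and no slide held more than 1 group, so slide and escaper group cannot be told apart; affected and normal dogs lay on 2 slides each. In whole muscle, fewer cells of a type and less RNA per cell cannot be told apart.

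The markers fixed for the tissue and for other cell types were read beside the Notch genes. Skeletal muscle fibre genes were bright, with the fast myosin light chain MYLPF and the fast troponin TNNI2 above background on 20 of 20 arrays and saturated on 18 and 17 of them. The mean log2 ratio of the 9 tested fibre markers was 0.71 in escaper 1 and −1.72 in escaper 2. It was −1.54 in affected 1 and between 0.09 and 0.54 in the other affected dogs, and it lay between 0.40 and 0.74 in normal dogs. Escaper 2 and affected 1 had the lowest means. Of the 9 markers, 6 were saturated on at least 1 array; over the other 3, MYH7, MB and PYGM, a choice made after the values were seen, the mean was 0.62 in escaper 1 and −2.08 in escaper 2, −1.90 in affected 1 and between 0.17 and 0.63 in the other affected dogs, and between 1.05 and 1.24 in normal dogs. The saturated MYLPF averaged 1.11 in escapers, 0.18 in affected dogs and 0.22 in normal dogs, and the saturated TNNI2 averaged 0.42, 0.009 and 0.29 in the same order, so these 2 did not share the low escaper mean.

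The ligand JAG1 was hardly measurable on the array. In the dog's dye its probe stood well above background on 1 of 20 arrays, the one with affected 4 in Cy5, where the signal was 6.18 times the local background and the mean intensity was 424. On the array with the same dog in Cy3, the mean intensity was 135 and the signal 1.52 times the background, not well above it. The Cy5 array was bright as a whole, with a median signal over all probes of 5.28 times background, against at most 2.7 elsewhere. On that array the reference channel of the JAG1 spot was well above background too. Escaper ratios were −0.09 and 0.12. Affected ratios were 0.07, −0.08, 0.16 and −0.08, and normal ratios were 0.09, −0.07, −0.03 and 0.02. All 3 groups overlapped, and their means were 0.01 ± 0.15 in escapers, 0.02 ± 0.12 in affected dogs and 0.0003 ± 0.07 in normal dogs (SD, n = 2, 4 and 4).

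JAG1 passed the brightness filter in 0 dogs and so was not tested in the main comparison. When all probes were fitted without the brightness filter, 41911 in number, the JAG1 difference was 0.01 for escapers minus normal dogs (SE 0.11, adjusted p = 0.998) and 0.02 for affected minus normal dogs (SE 0.09, adjusted p = 0.978).

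The jagged-1 probe by description gave a different picture from the JAG1 probe. Its ratio was 0.31 in escaper 1 and 1.49 in escaper 2. The 4 affected dogs had 0.21, 0.59, 0.22 and 0.27, and the 4 normal dogs had 0.02, −0.17, −0.08 and 0.07. Every escaper and every affected dog lay above every normal dog, while escaper 1 lay within the affected range. This probe stood well above background on 2 of 4 escaper arrays, both of escaper 2, on 4 of 8 affected arrays and on 0 of 8 normal arrays. Escaper 2 had a signal of 5.53 times background in Cy5 and 5.20 times in Cy3, and normal arrays reached at most 3.21 times.

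Group means of that probe were 0.90 ± 0.84 in escapers, 0.32 ± 0.18 in affected dogs and −0.04 ± 0.11 in normal dogs (SD, n = 2, 4 and 4). The difference of escapers minus normal dogs was 0.94 (SE 0.28, 95% interval 0.31 to 1.57), with an unadjusted p of 0.00775 from limma and an adjusted p of 0.195, so it was not called. In that comparison 30.2% of all tested probes had groups that did not overlap. The probe entered the test only through escaper 2 and affected 4, the dogs with both arrays well above background. Its p, interval and lack of overlap are therefore those of a probe selected by its brightness in dystrophic dogs. Affected minus normal was 0.36 (SE 0.23, adjusted p = 0.544), and there 12.7% of tested probes did not overlap. Escaper minus affected was 0.58 (SE 0.28, adjusted p = 0.800). On brightness, the mean level over all escaper arrays was 1.75 times the mean level of the normal dogs. This is not a lower bound, since no normal array and neither array of escaper 1 was well above background. The deposited table gave larger differences, 2.74 for escaper minus normal (adjusted p = 0.103), 1.32 for affected minus normal (adjusted p = 0.202) and 1.42 for escaper minus affected (adjusted p = 0.827).

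The escaper value rested on 1 dog. Without escaper 2 the difference of escaper minus normal was 0.35, and without escaper 1 it was 1.53 with an adjusted p of 0.00215. Over the 10 dogs the ratios of the JAG1 probe and of the jagged-1 probe by description correlated with r = 0.297, a description that rests on a JAG1 probe mostly at background.

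The jagged-2 probe by description stood well above background on 20 of 20 arrays. Escapers had −0.14 and −0.09, affected dogs had −0.95, −0.37, −0.17 and −0.36, and normal dogs had −0.63, −0.59, −0.42 and −0.56. Both escapers lay above all other dogs, and affected 1 lay below all of them. Escaper minus normal was 0.43 (SE 0.21, 95% interval −0.03 to 0.89, adjusted p = 0.295) and escaper minus affected was 0.35 (SE 0.21, adjusted p = 0.800), so neither was called. Under median centring in place of loess they were 0.19 and 0.10, and without affected 1 escaper minus affected was also 0.19. Affected minus normal was 0.08 (SE 0.17, adjusted p = 0.857). Of all tested probes, 7.84% did not overlap between escapers and affected dogs.

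NOTCH2, a receptor carried by satellite cells and many other cell types, was measured at the edge of detection. Its probe stood well above background on 3 of 20 arrays, both of escaper 2 and the Cy5 array of affected 4. Escaper ratios were −0.20 and 0.08, affected ratios were −0.17, 0.04, 0.05 and −0.17, and normal ratios were −0.09, 0.05, −0.13 and −0.27. All 3 groups overlapped. Means were −0.06 ± 0.20 in escapers, −0.06 ± 0.12 in affected dogs and −0.11 ± 0.13 in normal dogs (SD, n = 2, 4 and 4).

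The probe did not enter the test. Without the brightness filter, escaper minus normal was 0.05 (SE 0.13, 95% interval −0.23 to 0.34, adjusted p = 0.982) and affected minus normal was 0.05 (SE 0.10, adjusted p = 0.932).

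HEY1, a repressor gene turned on by Notch and needed in mice for satellite cell upkeep together with its relative HEYL, was well above background on 2 of 20 arrays, both of escaper 2. Escaper ratios were −0.18 and 0.44. Affected ratios were −0.38, −0.11, −0.27 and −0.05, and normal ratios were −0.13, −0.003, −0.12 and −0.01. Escaper 2 lay above all other dogs and escaper 1 within the affected range. The 2 arrays of escaper 2 gave 0.16 in Cy5 and 0.72 in Cy3, and the 2 arrays of escaper 1 gave −0.49 in Cy5 and 0.13 in Cy3, so dyes disagreed within a dog about as much as the escapers differed from each other.

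Group means of HEY1 were 0.13 ± 0.44 in escapers, −0.20 ± 0.15 in affected dogs and −0.07 ± 0.07 in normal dogs (SD, n = 2, 4 and 4). On brightness, the mean HEY1 level over all escaper arrays was 1.16 times that of the affected dogs and 1.09 times that of the normal dogs. For these ratios, affected and normal levels under an array's lowest level well above background were raised to it. Neither is a lower bound, since neither array of escaper 1 was well above background. The fit of all probes gave escaper minus affected as 0.33 (SE 0.16, adjusted p = 0.902) and affected minus normal as −0.14 (SE 0.13, adjusted p = 0.824). In the reference channel HEY1 was well above background on 9 of 20 arrays, NOTCH2 on 6 and JAG1 on 1.

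**Figure D1:**
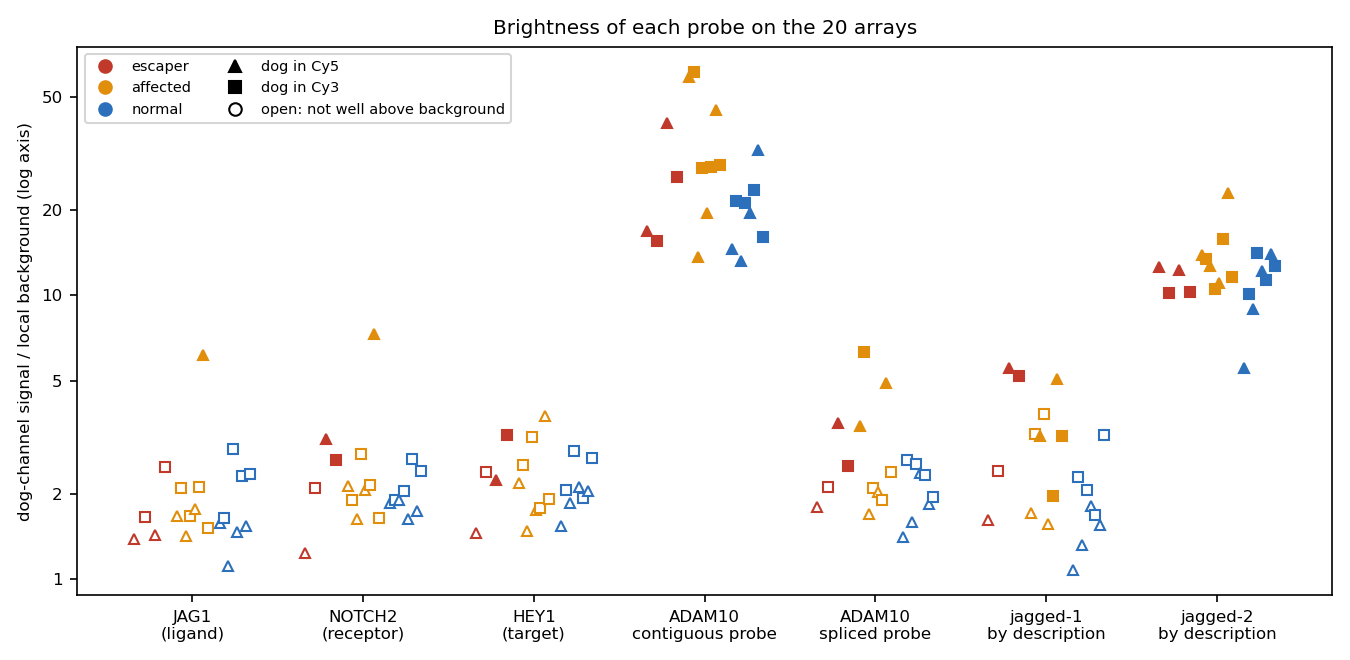
Signal of the dog's channel over the local background on a log axis, for each probe on the 20 arrays, with escapers left, affected dogs in the middle and normal dogs right within each probe, triangles for Cy5, squares for Cy3 and open symbols where the spot was not well above background. The JAG1 probe has a filled symbol on 1 array, at 6.18 times background, while the contiguous ADAM10 probe and the jagged-2 probe by description are filled on 20 of 20.

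ADAM10, the protease that makes the first activating cut in Notch and also sheds many other surface proteins, was the member that the array measured well. The contiguous probe stood well above background on 20 of 20 arrays, from 13.2 to 61.3 times the local background. Escapers had −0.56 and 0.79, and affected dogs had 0.43, −0.55, −0.09 and 0.08. Normal dogs lay close together at −0.59, −0.36, −0.49 and −0.62. Of the dystrophic dogs, escaper 2 and affected 1, 3 and 4 lay above all normal dogs, while escaper 1 and affected 2 lay inside the normal range. Both dystrophic groups were spread more widely than the normal dogs, with SDs of 0.96 in escapers and 0.41 in affected dogs, against 0.12 in normal dogs.

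Group means of the contiguous ADAM10 probe were 0.12 in escapers, −0.03 in affected dogs and −0.51 in normal dogs (n = 2, 4 and 4). Escaper minus normal was 0.63, a fold of 1.55 (SE 0.36, 95% interval −0.17 to 1.43, adjusted p = 0.362), and affected minus normal was 0.48, a fold of 1.39 (SE 0.29, 95% interval −0.17 to 1.13, adjusted p = 0.530). Escaper minus affected was 0.15 (SE 0.36, 95% interval −0.65 to 0.95, adjusted p = 0.941). None of the 3 differences passed the threshold. Under median centring escaper minus normal was 0.32 (adjusted p = 0.769). With these 10 dogs the ADAM10 differences were not called, which does not show that the groups were alike.

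The spliced probe, which covers the part of the zinc-binding motif printed above, was dimmer. It was well above background on 5 of 20 arrays, both of escaper 2, both of affected 1 and the Cy5 array of affected 4. Escapers had −0.26 and 0.25, affected dogs had 0.21, −0.37, −0.32 and −0.05, and normal dogs had −0.13, −0.19, −0.15 and −0.41. Escaper 2 and affected 1 were the highest dogs on both ADAM10 probes, and the spliced probe passed the brightness filter only through them. Affected 3, above all normal dogs on the contiguous probe, lay inside the normal range on the spliced probe. Over the 10 dogs the 2 probes correlated with r = 0.861 and rho = 0.709, given as a description of probes that share arrays and reference.

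Group means of the spliced probe were −0.005 ± 0.36 in escapers, −0.13 ± 0.27 in affected dogs and −0.22 ± 0.13 in normal dogs (SD, n = 2, 4 and 4). Escaper minus normal was 0.22 (SE 0.21, adjusted p = 0.605), affected minus normal was 0.09 (SE 0.17, adjusted p = 0.855) and escaper minus affected was 0.13 (SE 0.21, adjusted p = 0.907). These values depended on the processing: the deposited table gave 1.60 for escaper minus normal (adjusted p = 0.205), 1.13 for affected minus normal (adjusted p = 0.327) and 0.47 for escaper minus affected (adjusted p = 0.889). Without background correction they were 0.48, 0.31 and 0.17 in the same order, and again none was called.

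Counted by gene, 0 members were called in any of the 3 comparisons, with ADAM10 the only member tested. Over all tested probes the called share was 0.0187% for affected against normal dogs, 0% for escapers against normal dogs and 0% for escapers against affected dogs. At an unadjusted limma p under 0.05, again 0 members passed, while 12.4%, 18.4% and 5.22% of all tested probes did in the same 3 comparisons. With 1 member tested, the count cannot be read against these shares.

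**Figure D2:**
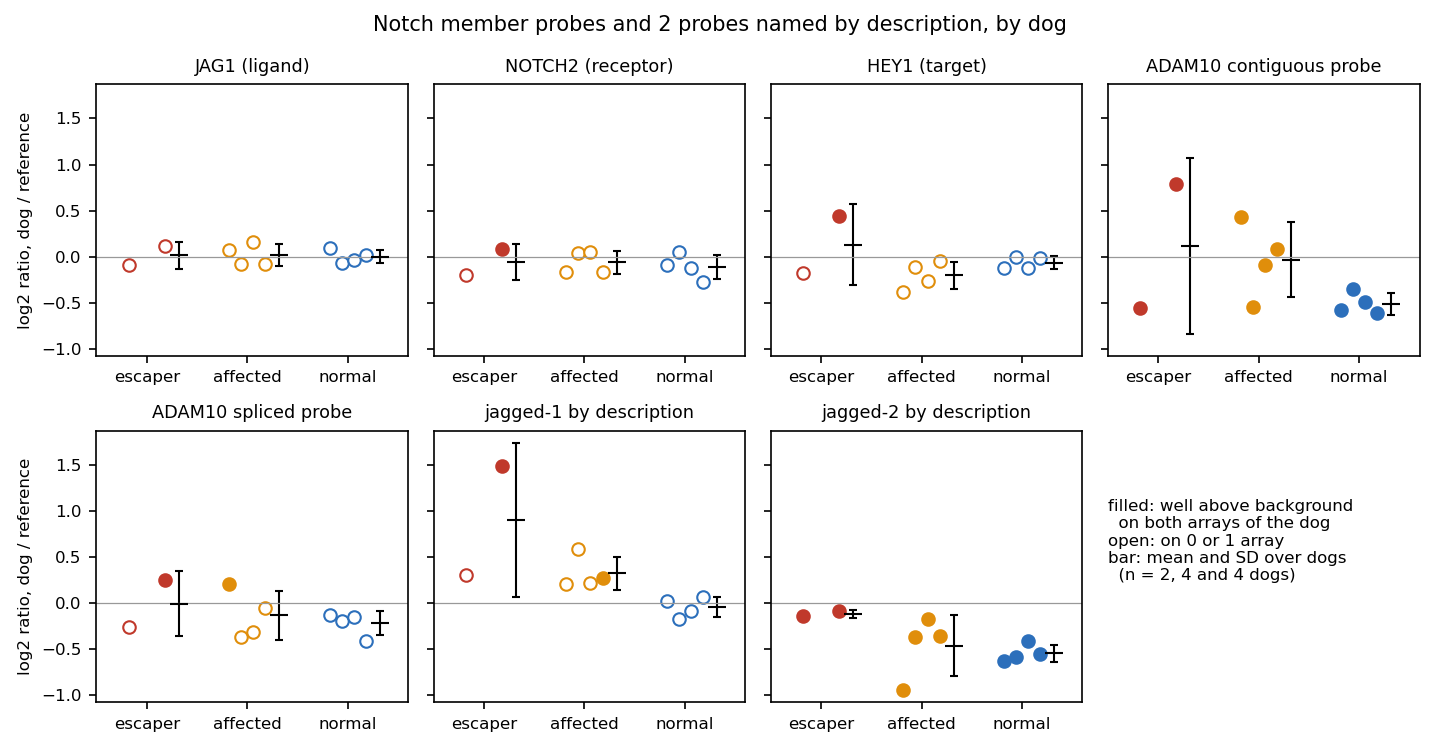
Log2 ratio of dog over reference for each of the 5 member probes and the 2 probes named by description, with 1 point per dog, filled where both arrays were well above background, and bars for the mean and SD over dogs. The normal dogs of the contiguous ADAM10 probe sit between −0.62 and −0.36, and escaper 2 is the highest dog for this probe at 0.79 and for the jagged-1 probe by description at 1.49.

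**Figure D3:**
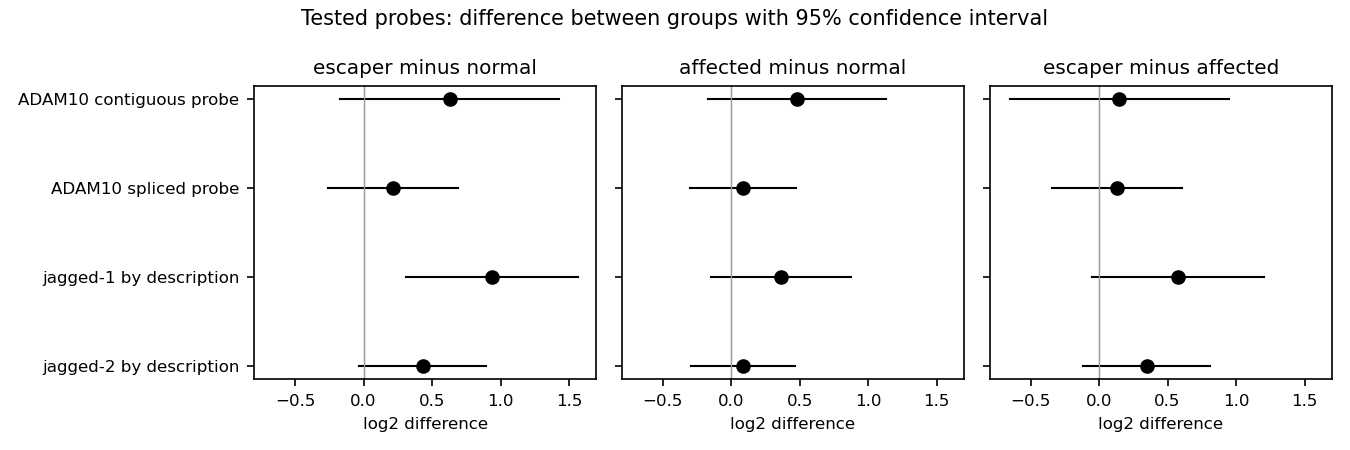
Differences between group means on the log2 scale with 95% intervals for the 4 tested probes in the 3 comparisons. The interval of the jagged-1 probe by description for escaper minus normal, 0.31 to 1.57, lies above 0, and its adjusted p was 0.195. That probe and the spliced ADAM10 probe passed the brightness filter only through dystrophic dogs.

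The ADAM10 difference between escapers and normal dogs rested on 1 dog. Without escaper 2, the contiguous probe gave −0.05 for escaper minus normal, and without escaper 1 it gave 1.31 with an adjusted p of 0.0177, a call that then rests on 1 escaper assumed to vary like the other dogs. In that fit 24.5% of all tested probes were called, so ADAM10 was one of 3920 probes. For affected minus normal, the contiguous probe alone stayed between 0.33 and 0.65 under every alternative run and was never called. Averaged with the spliced probe, the ADAM10 difference was 0.28 and was not called either. With affected 1 and escaper 2 both left out, the contiguous probe gave 0.33 (adjusted p = 0.263).

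Macrophage, fibroblast, endothelial and satellite cell marker means were highest in escaper 2, the dog highest in ADAM10. In affected 1, the next highest in ADAM10, the fibroblast and satellite cell means were the lowest of all dogs. Its macrophage mean, −1.13, was the lowest of the affected group but lay above all normal dogs. Its endothelial mean, −0.03, lay within the normal range. In escaper 2 the adipocyte mean, −0.02, and the smooth muscle and pericyte mean, 0.11, lay within the normal range. The mean log2 ratio of 12 tested macrophage and myeloid markers, of 17 listed, was −1.12 in escaper 1 and 0.93 in escaper 2, between −1.13 and −0.16 in affected dogs and between −1.65 and −1.34 in normal dogs. Their summed normalised intensity ranged from 9910 to 52500 in escapers, from 11700 to 21700 in affected dogs and from 6770 to 7880 in normal dogs, with CSF1R and FCER1G not passing the brightness filter. LGALS3 and TYROBP were its brightest members. LGALS3 averaged −1.06 in escapers, −1.14 in affected dogs and −3.62 in normal dogs, and TYROBP averaged 0.60, −0.71 and −0.27 in the same order, so the affected mean lay above the normal mean for LGALS3 and below it for TYROBP.

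The 11 fibroblast markers, all tested, had mean ratios of −0.15 in escaper 1 and 2.23 in escaper 2, from −1.08 to 1.15 in affected dogs and from −1.02 to −0.56 in normal dogs. Their summed intensity ranged from 16900 to 155000 in escapers, from 7750 to 53100 in affected dogs and from 6350 to 10900 in normal dogs. Decorin, DCN, averaged 1.54 in escapers, 0.28 in affected dogs and −0.90 in normal dogs, and the collagen chain COL1A2 averaged 1.54, −0.15 and −1.89 in the same order. Affected 1 had the highest ADAM10 ratio of the affected group with the lowest fibroblast mean of all dogs, −1.08, and the lowest macrophage mean of its group, −1.13.

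Fibre markers were low in both of these dogs. Their summed intensity over 9 tested of 16 listed ranged from 187000 to 472000 in escapers, from 210000 to 404000 in affected dogs and from 392000 to 465000 in normal dogs, and MYH2 and ENO3 were bright on 20 of 20 arrays but had flagged spots and were not tested. The 2 dogs with the highest ADAM10 ratios, escaper 2 and affected 1, were the 2 with the lowest fibre marker means. The part of cell composition in the ADAM10 and jagged-1 values was not tested.

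**Figure D4:**
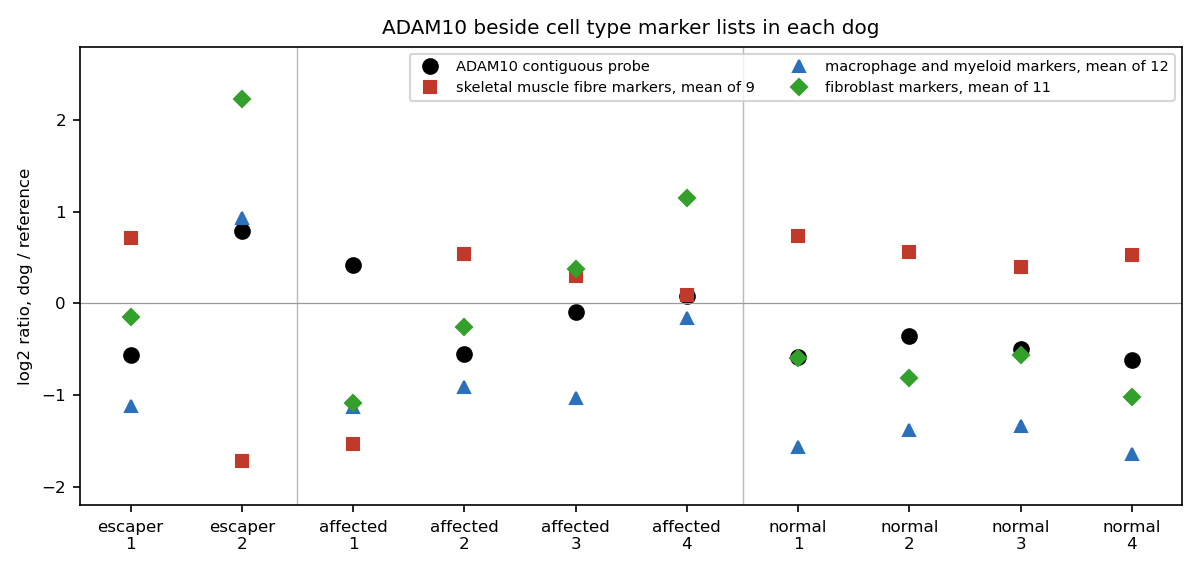
Log2 ratio of the contiguous ADAM10 probe in each dog beside the mean log2 ratio of fibre, macrophage and fibroblast markers, with the dogs along the axis and lines between groups. Escaper 2 and affected 1 have the highest ADAM10 points and the lowest fibre points, at −1.72 and −1.54; 6 of the 9 fibre markers were saturated on at least 1 array.

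Satellite cells and myoblasts, in which Notch acts in muscle, had 7 tested of 13 listed markers, with MEGF10 and NCAM1 not passing the brightness filter. Their mean ratio was −0.37 and 0.04 in escapers, −0.98 to −0.16 in affected dogs and −0.73 to −0.54 in normal dogs, and their summed intensity ranged from 24300 to 38400 in escapers, from 6270 to 38300 in affected dogs and from 15700 to 25400 in normal dogs. ITGA7, an integrin chain of satellite cells and fibres, averaged 0.13 in escapers, −0.46 in affected dogs and −0.59 in normal dogs, and the cadherin CDH15 averaged −0.43, −0.41 and −0.49 in the same order. Endothelial markers, 7 tested of 13, averaged −0.25 and 0.99 in escapers, −0.41 to −0.03 in affected dogs and −0.10 to 0.10 in normal dogs; the brightest, VWF, averaged 0.04 in escapers, −0.43 in affected dogs and −0.28 in normal dogs, and PECAM1 averaged 0.08, −0.61 and −0.31. Smooth muscle and pericyte markers, 7 tested of 12, averaged 0.05 and 0.11 in escapers, −0.26 to 0.02 in affected dogs and 0.02 to 0.12 in normal dogs, with CSPG4 at −0.34, 0.04 and 0.11 and KCNJ8 at 0.35, −0.22 and 0.13 in the same group order. Adipocyte markers, 6 tested of 6, averaged 0.35 and −0.02 in escapers, −0.18 to 0.37 in affected dogs and −0.08 to 0.29 in normal dogs, with FABP4 at 1.91, 0.36 and 0.50 and LPL at −1.36, −0.45 and −0.21. Of 11 T and NK cell markers only NKG7 was tested, at −0.32, −0.73 and 0.72 in that order and saturated on 6 arrays, which is too little to describe those cells.

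The genes whose ratios ran most like ADAM10 over the 10 dogs, among 6189 other named genes, were PID1, POLR2H and ARPC5. Pearson's r was 0.992 for PID1, 0.991 for POLR2H and 0.989 for ARPC5, against a median of 0.148 over all these genes. PID1 had −1.07 and 1.49 in escapers, 0.78, −0.83, −0.38 and −0.005 in affected dogs, and −1.10, −0.77, −0.97 and −1.25 in normal dogs. As with ADAM10, escaper 2 and affected 1 were its highest dogs. All dogs share the reference RNA, and no p is given for genes ranked by likeness.

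The rest of the pathway was read from 6 lists with 85 other genes, of which 50 are on the array and 35 were tested. Of these 35, 0 were called in either direction in any comparison. At an unadjusted limma p under 0.05, 4 were higher and 1 lower in escapers than in normal dogs, 14.3% against 18.4% of all tested probes. In affected against normal dogs 1 was higher and 2 lower, 8.57% against 12.4%. In escapers against affected dogs 3 were higher and 1 lower, 11.4% against 5.22%. Groups did not overlap for 22.9% of the 35 in escapers against normal dogs, beside 30.2% of all tested probes. For affected against normal dogs the shares were 17.1% and 12.7%, and for escapers against affected dogs 11.4% and 7.84%. Statements below that groups did not overlap are to be read beside these shares. The median difference of the 35 was 0.08 for escaper minus normal, 0.02 for affected minus normal and 0.09 for escaper minus affected, beside −0.001, 0.02 and −0.008 over all tested probes.

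Among ligands and ligand-like proteins, 4 of 11 were tested and 0 called. DLK2, a membrane protein related to Delta, had −0.04 and −0.45 in escapers, −0.15, 0.03, −0.12 and −0.02 in affected dogs, and 0.23, 0.17, 0.15 and 0.19 in normal dogs. Every dystrophic dog lay below every normal dog. Escaper minus normal was −0.43 (SE 0.15, adjusted p = 0.210) and affected minus normal was −0.25 (SE 0.12, adjusted p = 0.442). MFAP2, a microfibril protein that can bind Notch receptors in cultured cells, had 0.13 and 1.18 in escapers, 0.05, −0.18, 0.46 and 0.75 in affected dogs, and −0.16, −0.12, 0.03 and −0.12 in normal dogs, with escaper minus normal at 0.75 (SE 0.31, adjusted p = 0.253). The MFAP2 probe stood well above background on 5 of 20 arrays, so most of these ratios come from arrays where it was dim.

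Among genes of receptor maturation and shedding, 6 of 15 were tested and 0 called. TIMP1, a secreted inhibitor of metalloproteases that also blocks ADAM10, differed most in size. It had −2.81 and 0.52 in escapers, −2.33, −2.13, −2.48 and −0.95 in affected dogs, and −3.32, −3.38, −2.95 and −3.48 in normal dogs. Every dystrophic dog lay above every normal dog. Escaper minus normal was 2.14 (SE 0.75, adjusted p = 0.213) and affected minus normal was 1.31 (SE 0.62, adjusted p = 0.422). With affected 1 and escaper 2 both left out, affected minus normal for TIMP1 was 1.43 and was called (adjusted p = 0.0394), one of 899 probes.

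TSPAN5, a tetraspanin that brings ADAM10 to the cell surface, had −0.02 and 0.48 in escapers, −0.27, −0.08, −0.57 and −0.18 in affected dogs, and −0.35, −0.13, −0.26 and −0.44 in normal dogs. Both escapers lay above all other dogs. Escaper minus normal was 0.53 (SE 0.20, adjusted p = 0.222) and escaper minus affected was 0.50 (SE 0.20, adjusted p = 0.800). The TSPAN5 probe stood well above background on 6 of 20 arrays. Its differences and lack of overlap are therefore those of a probe that was dim on most arrays.

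Of gamma-secretase, 5 of 6 genes were tested and 0 called. APH1A, a subunit of the complex, had 0.02 and 0.07 in escapers, 0.20, 0.06, 0.04 and −0.05 in affected dogs, and 0.29, 0.31, 0.39 and 0.29 in normal dogs. Every dystrophic dog lay below every normal dog. Affected minus normal was −0.26 (SE 0.11, adjusted p = 0.382) and escaper minus normal was −0.28 (SE 0.13, adjusted p = 0.295). PSENEN, the small subunit that activates the complex, had an affected minus normal difference of −0.36 (SE 0.15, adjusted p = 0.376) and no overlap between those groups. The subunit NCSTN, named outside the rule after its values were seen, gave 0.29 for escaper minus normal (SE 0.18, adjusted p = 0.403).

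In the nuclear complex, 9 of 20 genes were tested and 0 called. The corepressor NCOR1 had the smallest unadjusted p of the pathway in affected against normal dogs, 0.00874. It had −0.17 and −0.67 in escapers, 0.70, 0.25, −0.05 and −0.06 in affected dogs, and −0.56, −0.31, −0.50 and −0.34 in normal dogs, so every affected dog lay above every escaper and every normal dog. Affected minus normal was 0.64 (SE 0.20, adjusted p = 0.274) and escaper minus affected was −0.63 (SE 0.24, adjusted p = 0.800). The deacetylase HDAC1 had −0.13 and 0.91 in escapers, with escaper minus normal at 0.59 (SE 0.25, adjusted p = 0.253). RBPJ, the DNA-binding partner of cut Notch and named outside the rule, had −0.59 and 0.24 in escapers, 0.52, −0.86, −0.51 and −0.21 in affected dogs, and −0.74, −0.31, −0.41 and −0.76 in normal dogs. Its highest dogs were affected 1 and escaper 2, and escaper minus normal was 0.38 (SE 0.37, adjusted p = 0.595).

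Of other target genes, 6 of 16 were tested and 0 called. ID3, an inhibitor of myogenic transcription factors, had −0.02 and 2.02 in escapers, between −0.08 and 0.24 in affected dogs and between −0.18 and 0.47 in normal dogs, and escaper minus affected was 0.89 (SE 0.44, adjusted p = 0.800). The cyclin CCND1 had −0.16 and 0.43 in escapers, and escaper minus affected was 0.51 (SE 0.26, adjusted p = 0.800). HES5, a repressor of the HES family and named outside the rule, was well above background on 20 of 20 arrays. It had 0.15 and −0.35 in escapers, −0.29, −0.003, 0.11 and 0.26 in affected dogs, and −0.17, −0.04, 0.02 and −0.18 in normal dogs. Its escaper minus normal difference was −0.01 (SE 0.20, adjusted p = 0.988).

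Among trafficking and turnover genes, 5 of 17 were tested and 0 called. NEURL, the file's name for the ubiquitin ligase neuralized, had an affected minus normal difference of −0.30 (SE 0.15, adjusted p = 0.446). CCNC, a cyclin known in human cells to take part in turnover of cut Notch, had −0.40 and 0.78 in escapers, 0.22, −0.13, 0.12 and 0.08 in affected dogs, and −0.23, −0.14, −0.49 and −0.31 in normal dogs. Every affected dog lay above every normal dog, and affected minus normal was 0.37 (SE 0.23, adjusted p = 0.537).

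**Figure D5:**
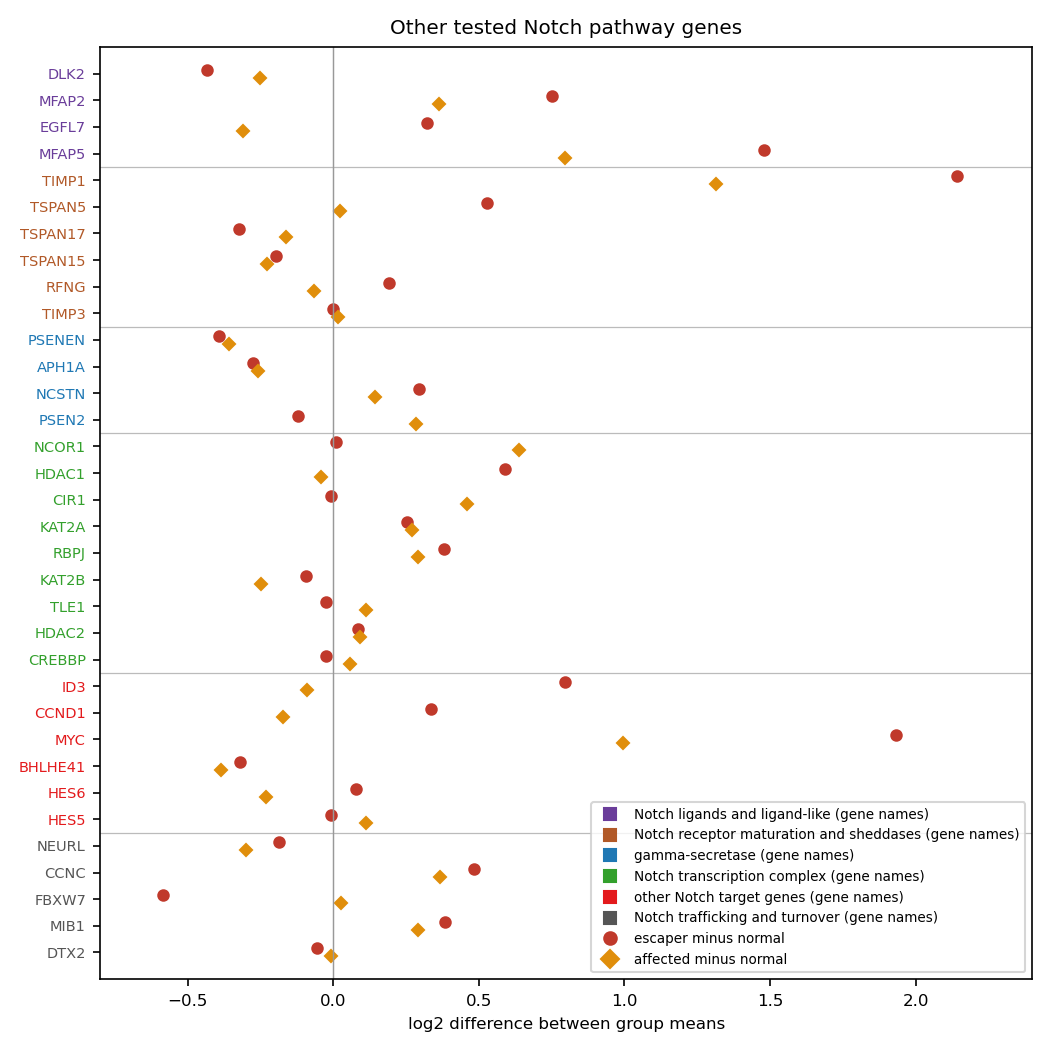
Difference in group means on the log2 scale for other tested pathway genes, grouped by list, with circles for escaper minus normal and diamonds for affected minus normal; both share the 4 normal dogs. TIMP1 lies farthest right at 2.14 and 1.31, and 0 of the genes shown passed the adjusted threshold in either comparison.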

How the data were processed

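Spot quantification used Agilent Feature Extraction 9.5.3.1 according to the file headers. The deposited scanner files give a mean intensity per spot and a median intensity of its local background in each dye, per the file headers. Log2 ratios are deposited in a separate value table, whose preparation is not given in the sources used here; each column equalled the log2 ratio of the files' processed signals, dog over reference, with dye swaps already turned (r = 1), so scale and direction are settled and the reason for its uncentred columns is unknown. Its column medians, dog in Cy5 then in Cy3, were 0.04 and 0.24 for escaper 1 and −0.06 and 0.13 for escaper 2. For affected 1 they were −0.07 and 0.09, for affected 2 they were 0.12 and 0.25, for affected 3 they were 0.0009 and 0.21, and for affected 4 they were −0.04 and 0.19. For normal 1 they were 0.01 and 0.21, for normal 2 they were −0.16 and 0.18, for normal 3 they were −0.08 and 0.16, and for normal 4 they were −0.09 and 0.12.

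Mean and background intensities were corrected by normexp (offset 50, all spots) and loess-normalised within arrays in limma 3.58.1 (R 4.3.3), with the 1417 control spots at weight 0 and flagged spots left out. Dye-swapped ratios were turned and the 2 arrays of a dog averaged, so the dog is the replicate, as the labels name each animal. All 10 dogs entered 1 limma fit of 3 groups, with Benjamini-Hochberg adjustment over 16008 probes. Brightness ratios and summed intensities used channel levels after loess and Aquantile scaling. Dogs were numbered in accession order, which pairs nothing. Sequences and positions are the array files' own. Symbols were updated through a RefSeq table of assembly UU_Cfam_GSD_1.0, from which no coordinates were taken: of 42034 probes, 10047 matched by symbol, 144 by synonym, 1371 by gene ID and 19 by accession, 654 kept the file's name and 29799 stayed unnamed. A gene was represented by its tested probe with the highest mean intensity.

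All member probes are named. Of the pathway lists, the 2 genes of each list with the smallest p in any comparison are named; of the marker lists, the 2 brightest genes; and for ADAM10 the 3 genes with the highest correlation. The members, lists and tests were chosen with earlier results of these data known. One tested pathway gene is counted but not reported here. The calculation was checked on simulated data. The number of arrays limits precision, and p-values cover the spread between these dogs only. Alternatives were other background, scaling, filter, dye, block and variance settings and leaving out each dog.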

Additional observations from a re-analysis of the deposited data

Results flagged for a closer look

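In the affected group, affected 2 stood apart on the jagged-1 probe by description, with a log2 ratio of 0.59, while the other 3 affected dogs lay between 0.21 and 0.27. The gap to its nearest neighbour was 0.844 of the group's range, above Dixon's 95% critical value for 4 samples. Of the 14 groups of 4 dogs examined, 1 was singled out in this way, and chance gives about 1 in 20.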

How the results depend on the processing

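No paired analysis was possible because the labels give no replicate numbers shared between groups. Called members were 0 under all 25 alternatives in affected against normal dogs and in escapers against affected dogs, and under 24 of 25 in escapers against normal dogs. Leaving out 1 dog at a time, called members ranged from 0 to 1 in escapers against normal dogs, and called pathway genes from 0 to 10 there and from 0 to 4 in escapers against affected dogs. The highest counts came without escaper 1, when 3920 and 1755 probes were called. With all arrays and the dog as a random block (correlation 0.65), 1 pathway gene, TIMP1, was called in escapers against normal dogs among 1000 probes, and the jagged-1 probe by description passed (adjusted p = 0.0406). With affected 1 and escaper 2 both left out, a choice made after seeing the data, 1 pathway gene, TIMP1, was called in affected against normal dogs.

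Leaving out 1 dog at a time turned some signs. For affected minus normal, the spliced ADAM10 probe ranged from −0.026 (without affected 1) to 0.17 and the jagged-2 probe by description from −0.013 (without affected 3) to 0.25. For escaper minus normal, without escaper 2 and then without escaper 1, the contiguous ADAM10 probe gave −0.051 and 1.31 and the spliced probe −0.037 and 0.47. For escaper minus affected, the contiguous probe gave −0.53 and 0.83, the spliced probe −0.12 and 0.38 and the jagged-1 probe by description −0.016 and 1.17 (adjusted p = 0.0118) in the same order, and without affected 2 the contiguous probe gave −0.025. With affected 1 and escaper 2 both left out, escaper minus affected was −0.38 on the contiguous, −0.011 on the spliced and −0.053 on the jagged-1 probe by description, while the other turned values stayed at −0.026, −0.051 and −0.037. Escaper minus affected on the contiguous probe was also −0.15 under median centring, under which the median over all probes was −0.18, and −0.034 with dogs in Cy3 alone. The cause was not tested. With the slide as a random block (correlation −0.27) the jagged-1 probe by description had an adjusted p of 0.0502 for escaper minus normal. In that fit 522 probes were called, against 0 in the main fit. Each slide held 1 group only, so the fit cannot separate slide from group.

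JAG1, NOTCH2 and HEY1 lay mostly at background, where offsets pull ratios toward 0, and a fit without 1 escaper assumes that the other varies like the remaining dogs.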
